A study of Mus musculus with 18 samples.

Results

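The genes described here are the Slc25 family of mitochondrial carriers in white adipose tissue (WAT) of diabetic and bezafibrate-treated mice. A gene belonged to the family when its probe set on the Mouse Gene 1.0 ST array had a single symbol made of Slc25a and a number, and where a symbol had several probe sets, the one of highest average signal across the 18 arrays stood for it. This gave 45 members among 19938 genes, and 1 further symbol of the pattern is not reported here. Visceral fat came from wildtype male C57BL/6N mice aged 5 to 6 months, with 1 array per mouse. Control mice on standard diet (Con, SD; n = 7) had been mock-injected with citrate buffer. Mice with insulin-deficient diabetes (STZ, SD; n = 6) had received streptozotocin (STZ), a toxin of the pancreatic beta cell, at 65 mg/kg on 5 successive days when 10 to 16 weeks old, and ate the same diet. The third group (STZ, BEZ; n = 5) received STZ and, from 2 weeks later, chow with bezafibrate (BEZ), a fibrate drug that activates peroxisome proliferator-activated receptors, for 8 weeks. The labels give 0.25% or 0.5% (w/w) BEZ without saying which mouse had which, and no group received BEZ without STZ.

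Slc25 carriers are small proteins of the inner mitochondrial membrane that swap metabolites, nucleotides and ions between the matrix and the cytosol. In the adipocyte they export the citrate from which fatty acids are built, exchange ATP for ADP, bring in phosphate and supply the matrix with cofactors. A few relatives kept the family name but sit elsewhere, such as Slc25a46 of the outer membrane, which takes part in mitochondrial shape.

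The promoters of 3 carriers are shown because these carriers lead the results: Slc25a1, the citrate carrier, Slc25a5, the ADP/ATP carrier of dividing and most other cells, and Slc25a10, the dicarboxylate carrier of fat and liver. Each line is the 250 bases before the start of the gene, read 5′ to 3′ along its own strand, from RefSeq on GRCm38.p6. Capitals mark matches on either strand to 6 motifs: the E-box CACGTG, the CCAAT box, the GC box GGGCGG, the core TGACGT of the cyclic AMP element, the nuclear receptor hexamer AGGTCA, and AGGTCANAGGTCA. The last is the direct repeat bound by peroxisome proliferator-activated receptors and contains the hexamer.
Slc25a1, chr16:17928220-17928469, minus strand: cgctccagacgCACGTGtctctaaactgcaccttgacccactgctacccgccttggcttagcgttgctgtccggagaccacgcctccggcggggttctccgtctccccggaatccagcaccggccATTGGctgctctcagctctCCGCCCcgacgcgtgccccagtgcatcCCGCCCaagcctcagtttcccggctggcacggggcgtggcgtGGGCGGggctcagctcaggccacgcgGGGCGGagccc
Slc25a5, chrX:36795347-36795596, plus strand: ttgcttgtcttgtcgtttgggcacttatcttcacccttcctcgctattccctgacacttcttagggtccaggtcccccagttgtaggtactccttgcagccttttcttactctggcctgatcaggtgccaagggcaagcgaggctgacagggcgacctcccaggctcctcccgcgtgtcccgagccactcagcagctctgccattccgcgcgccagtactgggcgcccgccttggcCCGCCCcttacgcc
Slc25a10, chr11:120491587-120491836, plus strand: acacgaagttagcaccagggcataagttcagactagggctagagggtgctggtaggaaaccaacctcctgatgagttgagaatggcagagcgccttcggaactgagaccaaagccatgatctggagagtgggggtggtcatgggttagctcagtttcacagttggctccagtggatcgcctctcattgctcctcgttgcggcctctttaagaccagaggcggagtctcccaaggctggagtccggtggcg
The Slc25a1 window held 1 E-box, 1 CCAAT box and 4 GC boxes, and 70% of its bases were G or C. The Slc25a5 window held 1 GC box and the Slc25a10 window held none of the motifs. Of 32851 promoters of the same length, 6.02% held the E-box, 33.8% the CCAAT box, 32.7% the GC box, 6.47% the cyclic AMP core, 14.02% the hexamer and 0.0335% the direct repeat. The promoter table held 45 promoters of 35 of the member genes. Of these 45 promoters, 8 held the E-box, 21 the CCAAT box, 31 the GC box, 4 the cyclic AMP core, 4 the hexamer and 0 the direct repeat. Counted by gene, with a match in any promoter of the gene, they were found in 7, 18, 24, 4, 4 and 0 genes. The percentages above are by promoter. These are matches of letters, and no binding was measured.

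The signals are log2 values, so a difference of 1 is a doubling, and array medians lay between 6.76 and 6.87. All arrays carried a strong adipocyte signal, with a mean of 11 white adipocyte markers between 11.88 and 12.51 in Con, SD and between 12.51 and 12.59 in STZ, BEZ. In STZ, SD it was 12.56 and 12.53 in replicates 1 and 5 but 12.11, 11.68, 11.68 and 10.38 in replicates 2, 3, 4 and 6. Of the 11 markers 10 were negative in STZ, SD against Con, SD, of which Dgat2 fell (9.09% of the 11, against 4.52% of all genes). All 11 were positive in STZ, BEZ against STZ, SD, of which 0 passed by limma, against 0.682% of all genes. All 11 had an unadjusted p under 0.05 there (100%, against 7.54% of all genes higher). In bulk tissue, fewer cells of a type and less RNA per cell cannot be told apart. Genes of neighbouring organs were also present. The mean of 14 pancreas acinar genes was 13.49 in STZ, SD replicate 6 and 12.01, 10.12, 9.75 and 9.11 in STZ, BEZ replicates 1 to 4, against 5.87 to 6.24 on the other 13 arrays. The mean of 6 thermogenic adipocyte markers was at most 7.35 in a control mouse and 6.97 in a diabetic mouse on standard diet but 7.21 to 7.89 with BEZ, where Cox8b and Cidea rose against both groups and Elovl3 against Con, SD. Of the 6, 2 rose against STZ, SD (33.3%, against 0.682% of all genes) and 3 against Con, SD (50%, against 4.57%). The list was mixed against Con, SD, with 4 positive and 2 negative differences, Cox7a1 at −0.09 and Dio2 at −0.17. The part of these markers in the differences below was not tested, except where a covariate is named. The mean of 16 genes of epididymis and testis ranged from 5.69 to 11.18 and was highest in Con, SD replicate 5 and STZ, SD replicate 3.

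In STZ, SD against Con, SD, the carriers that changed were 1 higher and 3 lower of 45. Slc25a27 rose, and Slc25a10, Slc25a35 and Slc25a25 fell. Changed means a Benjamini-Hochberg adjusted p under 0.10 in limma over all genes; by this rule 5.82% of all genes were higher and 4.52% lower. The members' shares were 2.22% and 6.67%, and their median log2 difference of −0.03 equalled that of all genes. At an unadjusted p under 0.05, 5 members were higher and 6 lower (11.1% and 13.3%, against 10.7% and 9.61% of all genes). With only the arrays of these groups fitted, or without the 5 arrays with pancreas genes, Slc25a27 was the 1 member of the 4 that passed.

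In STZ, BEZ against STZ, SD, the carriers Slc25a1 and Slc25a5 rose, so 2 of 45 were higher (4.44%) against 0.682% of all genes. No member was lower by limma, against 0.0251% of all genes. The median log2 difference was 0.08 over the members and 0.01 over all genes. At an unadjusted p under 0.05, 15 members were higher and 2 lower, which is 33.3% and 4.44% of them against 7.54% and 2.67% of all genes. The values of 3 members, Slc25a1, Slc25a3 and Slc25a42, were higher in every STZ, BEZ mouse than in every STZ, SD mouse, which held for 1.04% of all genes. With only the arrays of these groups fitted, neither Slc25a1 nor Slc25a5 passed.

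In STZ, BEZ against Con, SD, 7 of 45 carriers rose (15.6%) against 4.57% of all genes, and none was lower by limma against 1.38%. These were Slc25a42, Slc25a5, Slc25a28, Slc25a26, Slc25a16, Slc25a46 and Slc25a23. Of the 45 members, 7 were higher in every STZ, BEZ mouse than in every Con, SD mouse, against 5.17% of all genes. They were the same 7 that rose, and as both measures use the same values, the separation adds no further support. The median log2 difference was 0.06 over the members and −0.01 over all genes, and at an unadjusted p under 0.05, 11 members were higher and 2 lower (24.4% and 4.44%, against 11.3% and 6.96% of all genes). The comparisons share arrays, so the same STZ, SD or Con, SD values enter 2 of the 3. In all, 12 members changed in at least 1 comparison.

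**Figure D1:**
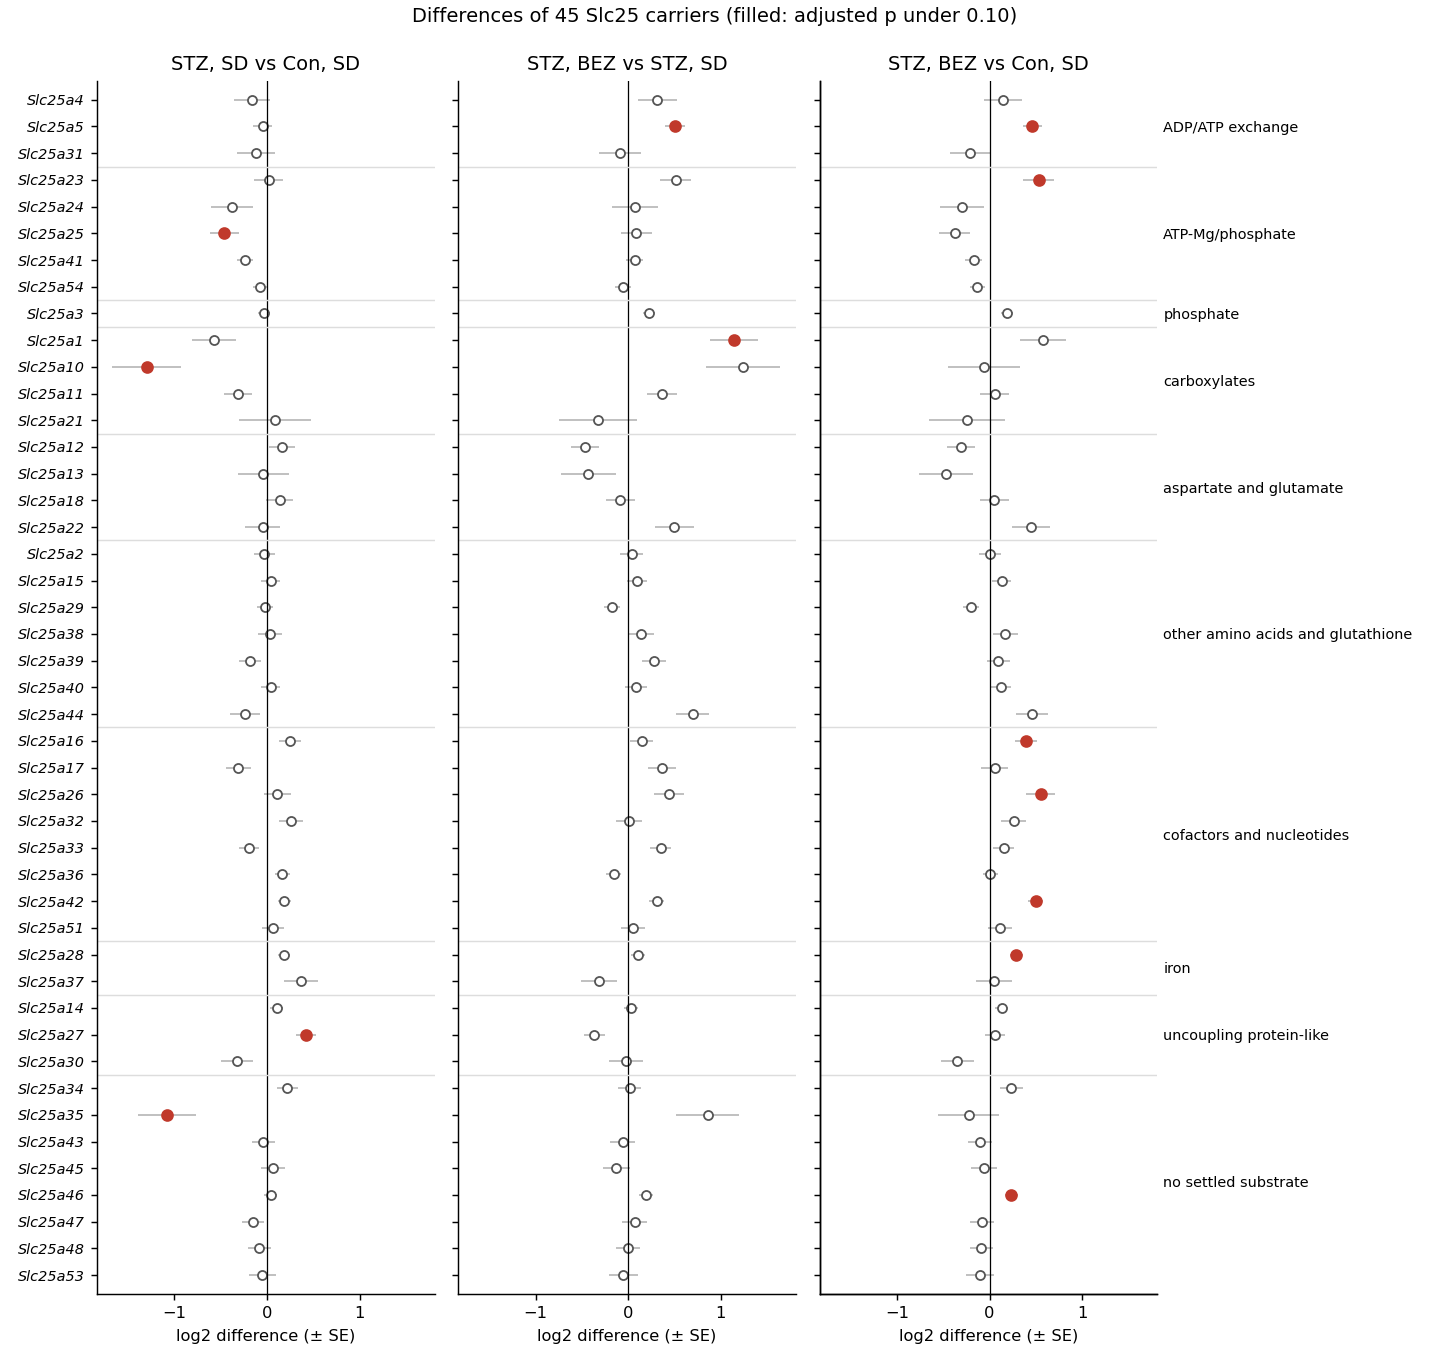
Log2 difference of each of the 45 carriers (points, ± SE from limma) in the 3 comparisons, ordered by transported substrate, with filled points at an adjusted p under 0.10. The lowest points are Slc25a10 and Slc25a35 in STZ, SD against Con, SD, at −1.30 and −1.08, and the 7 filled points of STZ, BEZ against Con, SD all lie to the right of 0.

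Carboxylate carriers move citrate, malate, succinate and 2-oxoglutarate, and gave the largest differences of the family. Of the 4 members, 1 fell in STZ, SD against Con, SD (25%, against 4.52% of all genes). In STZ, BEZ against STZ, SD, 1 rose (25%, against 0.682%). In STZ, BEZ against Con, SD, 0 changed by limma, against 4.57% of all genes higher and 1.38% lower. At an unadjusted p under 0.05, 1 was higher there and 0 lower (25% and 0%, against 11.3% and 6.96% of all genes).

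Slc25a10 exchanges malate or succinate for phosphate. Its log2 signal ran from 10.59 to 11.80 in Con, SD (median 10.92). In STZ, SD it was 10.92, 10.57 and 10.75 in replicates 1, 3 and 5 and 8.68, 8.65 and 8.99 in replicates 2, 4 and 6. Under BEZ it was 11.44, 10.96, 11.17, 10.91 and 10.53. The STZ, SD mice thus fell into a set of 3 between 10.57 and 10.92, within or just under the control range, and a set of 3 below every other mouse, while the STZ, BEZ values lay between 10.53 and 11.44. The mean difference between STZ, SD and Con, SD was −1.30 ± 0.37 (SE, adjusted p = 0.0471), which is 2.46-fold lower, with all 6 mice below the control mean of 11.06. STZ, BEZ was 1.24 ± 0.40 above STZ, SD (adjusted p = 0.25). Without STZ, SD replicate 2 or 4 the difference was −1.09 or −1.08 and no longer passed (adjusted p = 0.117 and 0.116).

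Slc25a35, a carrier whose substrate was not settled in the list used here, had the same low mice. It lay between 9.61 and 10.25 in Con, SD (median 9.85). In STZ, SD replicates 2, 4 and 6 it was 7.68, 7.54 and 8.80, and in replicates 1, 3 and 5 it was 9.56, 9.78 and 9.40. The STZ, BEZ values were 9.84, 9.67, 9.98, 9.60 and 9.17. STZ, SD was lower than Con, SD by a log2 difference of −1.08 ± 0.31 (adjusted p = 0.0509), 2.12-fold. The change did not pass without Con, SD replicate 6, STZ, SD replicate 2 or STZ, SD replicate 4 (−1.02 to −0.83, adjusted p 0.101 to 0.121). STZ, BEZ was 0.86 ± 0.34 above STZ, SD (adjusted p = 0.372).

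Replicate 6 is the STZ, SD mouse with the pancreas signal and the lowest adipocyte signal, and replicates 2 and 4 had adipocyte means of 12.11 and 11.68. Replicate 3 had the same adipocyte mean as replicate 4, 11.68, with Slc25a10 at 10.57 and Slc25a35 at 9.78. Replicates 3 and 4 also differed in the mean of epididymis and testis genes, at 10.51 and 8.42. The part of either tissue in these values was not tested by this pair. Without replicate 6, Slc25a10 was −1.15 (adjusted p = 0.0701) and Slc25a35 −1.08 (adjusted p = 0.0569). With the adipocyte mean as a covariate, the differences were −0.95 (adjusted p = 0.0905) and −0.99 (adjusted p = 0.082).

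Slc25a1 carries citrate out of the matrix in exchange for malate. It ranged from 11.01 to 12.45 in Con, SD (median 11.80) and from 10.26 to 12.09 in STZ, SD (median 11.24). Under BEZ it was 12.55, 12.34, 12.38, 12.25 and 12.17. Every STZ, BEZ value was above every STZ, SD value, with STZ, SD replicate 1 the nearest, and STZ, SD replicate 6 was the lowest mouse of all. STZ, BEZ was 1.14 ± 0.26 above STZ, SD (adjusted p = 0.0765), 2.21-fold. STZ, SD was −0.57 ± 0.24 from Con, SD (adjusted p = 0.177), and STZ, BEZ was 0.58 ± 0.25 from Con, SD (adjusted p = 0.227). With the adipocyte mean as a covariate the difference of STZ, BEZ from STZ, SD was 0.62 (adjusted p = 0.598). The call also ended when any of Con, SD replicates 2 and 3, STZ, SD replicates 2, 3, 4 and 6 or STZ, BEZ replicates 1 to 5 was left out (0.96 to 1.19, adjusted p 0.1004 to 0.225).

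Slc25a11, the 2-oxoglutarate carrier of the malate-aspartate shuttle, ranged from 10.60 to 11.10 in Con, SD (median 10.81) and from 9.99 to 11.16 in STZ, SD (median 10.51), and was 10.92, 10.96, 10.86, 10.91 and 10.78 in STZ, BEZ. The groups overlapped in every comparison, and its differences of −0.31 ± 0.15 and 0.37 ± 0.17 did not pass (adjusted p = 0.263 and 0.458). Slc25a21, which carries 2-oxoadipate, is taken up with the neighbouring organs below.

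**Figure D2:**
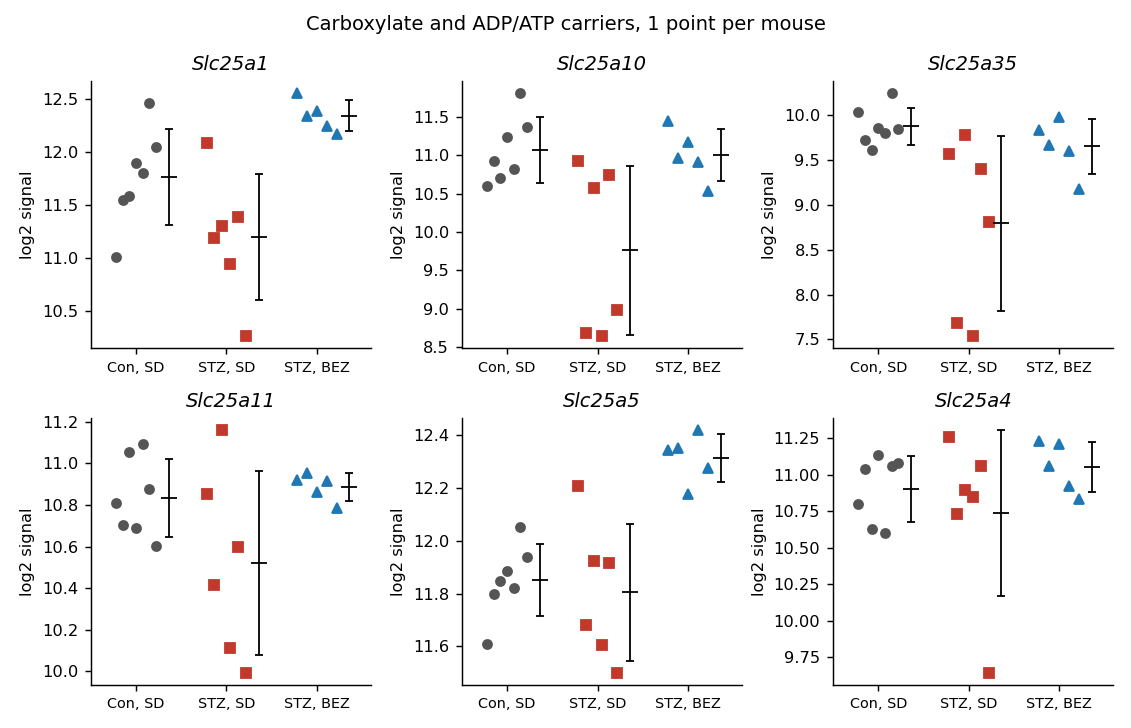
Log2 signal of 6 carriers in each mouse, by group, with the mean and SD beside the points. Slc25a10 and Slc25a35 show STZ, SD replicates 2, 4 and 6 below all other mice, and Slc25a1 and Slc25a5 show the narrow STZ, BEZ group at the top (12.17 to 12.55 and 12.18 to 12.42).

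**Figure D3:**
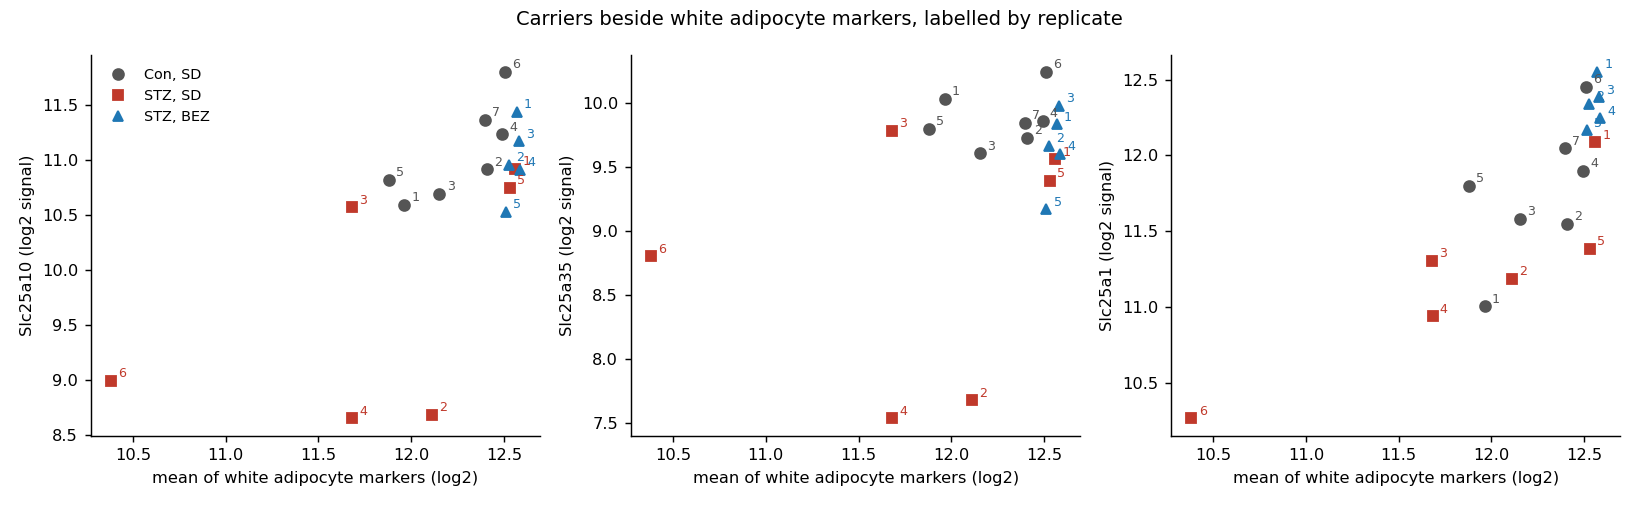
Log2 signal of Slc25a10, Slc25a35 and Slc25a1 against the mean of 11 white adipocyte markers, 1 labelled point per mouse. STZ, SD replicates 3 and 4 share an adipocyte mean of 11.68 and differ in Slc25a10, at 10.57 and 8.65. Their means of epididymis and testis genes also differ, at 10.51 and 8.42.

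ADP/ATP carriers hand the ATP made in the matrix to the cytosol. Of the 3 members, Slc25a5 rose with BEZ and the others did not pass. That is 33.3% of the 3, against 0.682% of all genes higher in STZ, BEZ against STZ, SD. Against Con, SD it is also 33.3%, where 4.57% of all genes were higher. Slc25a5 ranged from 11.61 to 12.05 in Con, SD (median 11.85) and from 11.50 to 12.21 in STZ, SD (median 11.80). STZ, BEZ mice measured 12.35, 12.35, 12.18, 12.42 and 12.28, all above every control mouse, and STZ, SD replicate 1 was the only STZ, SD mouse to reach them. STZ, BEZ was 0.46 ± 0.11 above Con, SD (adjusted p = 0.0255), 1.38-fold, and 0.51 ± 0.11 above STZ, SD (adjusted p = 0.0653), 1.42-fold. The first call held without any single array. The second ended without STZ, SD replicates 2, 3 or 4 or any STZ, BEZ mouse (0.47 to 0.54, adjusted p 0.102 to 0.196), and was 0.32 (adjusted p = 0.571) with the adipocyte mean as a covariate. The gene has 3 probe sets, and against STZ, SD they differed by 0.51, 0.53 and 0.52.

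Slc25a4, the ADP/ATP carrier best known from heart and muscle, ranged from 10.60 to 11.13 in Con, SD (median 11.04) and from 9.64 to 11.26 in STZ, SD (median 10.87), with 11.23, 11.06, 11.21, 10.92 and 10.83 in STZ, BEZ. Its groups overlapped, and no difference passed (−0.16 ± 0.19, 0.31 ± 0.21 and 0.15 ± 0.20 in the order of the comparisons, adjusted p = 0.69, 0.678 and 0.759).

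Slc25a3 brings in the phosphate for ATP synthesis. It ranged from 11.47 to 11.76 in Con, SD (median 11.52) and from 11.33 to 11.65 in STZ, SD (median 11.52), and was 11.76, 11.69, 11.75, 11.77 and 11.72 in STZ, BEZ. All STZ, BEZ mice were above all STZ, SD mice, yet the difference of 0.22 ± 0.07 did not pass (adjusted p = 0.218), nor did the 0.19 ± 0.07 against Con, SD (adjusted p = 0.128).

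ATP-Mg/phosphate carriers adjust the nucleotide pool of the matrix and are switched by calcium. Of 5 members, Slc25a25 fell in STZ, SD against Con, SD (20% of them, against 4.52% of all genes). Slc25a23 rose in STZ, BEZ against Con, SD (20%, against 4.57% of all genes). Slc25a25 ranged from 7.04 to 7.90 in Con, SD (median 7.72) and from 6.69 to 7.63 in STZ, SD (median 7.16), and STZ, BEZ mice measured 7.01, 7.19, 7.00, 7.56 and 7.35. Con, SD replicate 1 was as low as the diabetic mice, and STZ, SD replicate 5, at 7.63, was above the control mean of 7.60, so the groups overlapped. STZ, SD was −0.46 ± 0.16 from Con, SD (adjusted p = 0.0889), 1.38-fold lower. The call ended without Con, SD replicates 2, 3, 4, 6 or 7, STZ, SD replicates 1, 2, 3 or 4, or STZ, BEZ replicates 1, 2 or 5 (−0.48 to −0.37, adjusted p 0.101 to 0.207), and with the adipocyte mean as a covariate (−0.36, adjusted p = 0.172). STZ, BEZ was −0.38 ± 0.16 from Con, SD (adjusted p = 0.228) and 0.09 ± 0.17 from STZ, SD (adjusted p = 0.921).

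Slc25a23 ranged from 8.95 to 9.54 in Con, SD (median 9.14) and was 9.80 and 9.72 in STZ, SD replicates 1 and 5 and 8.80 to 9.23 in the other 4. The STZ, BEZ values were 9.70, 9.81, 9.69, 9.83 and 9.67. They were all above the controls but level with STZ, SD replicates 1 and 5. STZ, BEZ was 0.53 ± 0.16 above Con, SD (adjusted p = 0.0895), 1.44-fold, and 0.51 ± 0.17 above STZ, SD (adjusted p = 0.264). Leaving out Con, SD replicates 1, 2, 3, 5 or 7 or any STZ, BEZ mouse ended the call (0.49 to 0.55, adjusted p 0.128 to 0.206).

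Most, but not all, carriers listed here under cofactors and nucleotides supply the matrix, with coenzyme A, S-adenosylmethionine, folate, NAD and pyrimidine nucleotides. All 8 members had a positive difference in STZ, BEZ against Con, SD, as did 9697 of all 19938 genes. Of the 8 members, 3 rose (37.5%, against 4.57% of all genes). Slc25a42, which carries coenzyme A into the matrix, ranged from 7.98 to 8.41 in Con, SD (median 8.21) and from 8.32 to 8.52 in STZ, SD (median 8.40). STZ, BEZ mice measured 8.73, 8.76, 8.56, 8.84 and 8.65, above every mouse of the other groups. STZ, BEZ was 0.50 ± 0.08 above Con, SD (adjusted p = 0.00481), 1.41-fold, the lowest p of the family. It was 0.31 ± 0.08 above STZ, SD (adjusted p = 0.128), and STZ, SD was 0.19 ± 0.07 above Con, SD (adjusted p = 0.15). The call against Con, SD held without any single array, with an adjusted p of at most 0.0264.

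Slc25a26, the S-adenosylmethionine carrier, ranged from 7.11 to 7.69 in Con, SD (median 7.48) and from 7.19 to 8.28 in STZ, SD (median 7.50), where replicate 1 was the highest mouse of all. With BEZ it was 7.94, 8.11, 7.95, 7.96 and 8.01. STZ, BEZ was 0.55 ± 0.15 above Con, SD (adjusted p = 0.0617), 1.47-fold. The call ended without Con, SD replicates 1, 3 or 5 or STZ, BEZ replicates 1, 2, 4 or 5 (0.50 to 0.57, adjusted p 0.102 to 0.169).

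Slc25a16, a relative of the coenzyme A carrier, ranged from 9.53 to 9.92 in Con, SD (median 9.76) and from 9.55 to 10.47 in STZ, SD (median 9.96), and STZ, BEZ mice measured 10.00, 10.24, 9.98, 10.09 and 10.32. STZ, BEZ was 0.39 ± 0.12 above Con, SD (adjusted p = 0.0866), 1.31-fold, and 0.15 ± 0.12 above STZ, SD (adjusted p = 0.767), with 5 of 6 STZ, SD mice also above the control median. Without Con, SD replicates 1, 2, 3, 5 or 7 or STZ, BEZ replicates 1, 2, 4 or 5 it did not pass (0.35 to 0.43, adjusted p 0.112 to 0.239).

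Of the iron carriers, Slc25a28 (mitoferrin 2) rose in STZ, BEZ against Con, SD and Slc25a37 (mitoferrin 1) did not. Slc25a28 ranged from 8.25 to 8.56 in Con, SD (median 8.45) and from 8.54 to 8.83 in STZ, SD (median 8.60), and STZ, BEZ mice measured 8.74, 8.85, 8.66, 8.77 and 8.67. Only the lowest STZ, SD mouse met the control range. STZ, BEZ was 0.29 ± 0.07 above Con, SD (adjusted p = 0.0305), 1.22-fold, and STZ, SD was 0.18 ± 0.07 above Con, SD (adjusted p = 0.104). Without STZ, BEZ replicate 2 the first was 0.26 (adjusted p = 0.107). Slc25a37 differed by 0.05 ± 0.19 (adjusted p = 0.926) between STZ, BEZ and Con, SD.

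Slc25a27, also called UCP4, is an uncoupling protein-like member described mainly in brain, and was the only member that rose in STZ, SD. It ranged from 6.80 to 7.29 in Con, SD (median 7.00) and was 7.31, 7.70, 7.58, 7.60, 7.11 and 7.19 in STZ, SD. STZ, BEZ mice measured 7.02, 6.99, 7.17, 6.94 and 7.14, within the control range. STZ, SD was 0.42 ± 0.10 above Con, SD (adjusted p = 0.0271), 1.34-fold, and the call held without any single array (adjusted p at most 0.0735). STZ, BEZ was −0.36 ± 0.11 from STZ, SD (adjusted p = 0.228). The related Slc25a14 and Slc25a30 did not change.

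Slc25a46 ranged from 9.72 to 9.98 in Con, SD (median 9.81) and from 9.69 to 10.04 in STZ, SD (median 9.89), and was 10.07, 10.11, 10.10, 10.02 and 10.03 in STZ, BEZ. The STZ, BEZ mice lay just above the controls. The difference of 0.23 ± 0.07 (adjusted p = 0.0886), 1.18-fold, ended without Con, SD replicates 1, 2, 3, 5, 6 or 7 or any STZ, BEZ mouse (0.22 to 0.25, adjusted p 0.103 to 0.213).

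**Figure D4:**
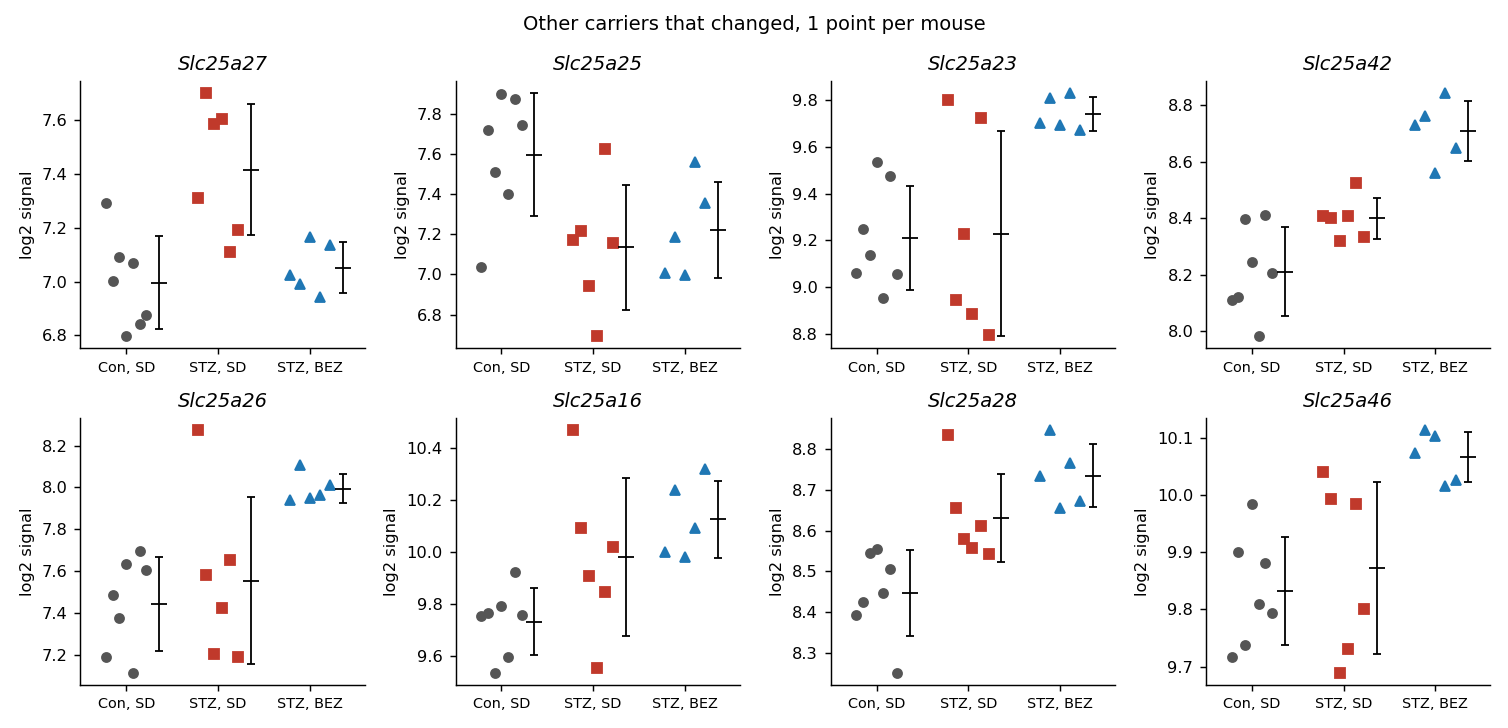
Log2 signal of 8 further carriers in each mouse, by group, with the mean and SD beside the points. Slc25a27 is high in STZ, SD (7.11 to 7.70), Slc25a25 is low there, and the other 6 show STZ, BEZ above the control range.

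Against Con, SD, the 7 calls of STZ, BEZ rest on arrays of which 4 of 5 carried pancreas genes. Without these 4 arrays and STZ, SD replicate 6, a single STZ, BEZ mouse remained and was assumed to vary like the other groups. None of the 7 then passed, with log2 differences of 0.44 for Slc25a42, 0.43 for Slc25a5, 0.23 for Slc25a28, 0.57 for Slc25a26, 0.59 for Slc25a16, 0.19 for Slc25a46 and 0.46 for Slc25a23. The remaining mouse, replicate 5, had a pancreas mean of 6.00, as low as the controls. It also had the highest liver marker mean of all arrays, 11.64. With the pancreas and the epididymis means as covariates, Slc25a42 was 0.49 (adjusted p = 0.0103) and Slc25a5 0.56 (adjusted p = 0.0167). Slc25a28 was 0.31 (adjusted p = 0.041), while Slc25a16 and Slc25a46 lost their calls (adjusted p = 0.179 and 0.186). Against STZ, SD, these covariates gave 1.32 for Slc25a1 (adjusted p = 0.0144) and 0.57 for Slc25a5 (adjusted p = 0.0141). Without the 5 arrays with pancreas genes, the single STZ, BEZ mouse was above STZ, SD by 0.79 for Slc25a1 and 0.41 for Slc25a5.

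The other 28 members are given by range. In STZ, SD against Con, SD they lay between −0.37 (Slc25a24, an ATP-Mg/phosphate carrier) and 0.37 (Slc25a37), 12 positive and 16 negative. In STZ, BEZ against STZ, SD they lay between −0.47 (Slc25a12, an aspartate/glutamate carrier) and 0.69 (Slc25a44), 16 positive and 12 negative, and in STZ, BEZ against Con, SD between −0.47 (Slc25a13) and 0.46 (Slc25a44), again 16 and 12. By substrate, 0 of 4 aspartate and glutamate carriers and 0 of 7 carriers of other amino acids and glutathione passed in any comparison by limma. At an unadjusted p under 0.05, these 11 gave 0 higher and 0 lower in STZ, SD against Con, SD, 3 and 1 in STZ, BEZ against STZ, SD and 2 and 1 in STZ, BEZ against Con, SD. The shares of all genes higher and lower by this limit were 10.7% and 9.61%, 7.54% and 2.67%, and 11.3% and 6.96% in the same order. Slc25a44, a carrier of branched-chain amino acids named here after its values were seen, was 9.41, 9.30, 9.04, 9.30 and 9.20 in STZ, BEZ against 7.92 to 9.12 in STZ, SD. Its difference of 0.69 ± 0.18 (adjusted p = 0.116) was just outside the limit.

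Some carriers were high in single mice that also carried genes of neighbouring organs. Slc25a31, the ADP/ATP carrier of the testis, was 5.70 in Con, SD replicate 5 and 5.70 in STZ, SD replicate 4, and 4.43 to 4.75 in the other 16 mice. The sperm lactate dehydrogenase gene Ldhc was highest in the same mice, at 11.06 and 9.36. Slc25a21 was 7.34 and 7.66 in Con, SD replicates 3 and 5 and 7.96 and 6.96 in STZ, SD replicates 3 and 4, against 5.60 to 6.38 elsewhere. In these mice Lcn8, an epididymal lipocalin, read 13.42, 13.43, 13.26 and 10.13, although Con, SD replicate 6 had 12.27 with Slc25a21 at 6.07. No difference of either carrier passed (adjusted p from 0.662 to 0.939). With the pancreas and epididymis means as covariates, however, Slc25a21 passed against Con, SD in both other groups, at 0.62 in STZ, SD (adjusted p = 0.0156; 0.09 without the covariates) and 0.79 in STZ, BEZ (adjusted p = 0.0148; −0.24 without them).

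Slc25a13 and Slc25a47, named after their values were seen, gave similar cases. Slc25a13, the aspartate/glutamate carrier citrin, was 7.88 and 7.83 in Con, SD replicates 3 and 5 and 8.33 in STZ, SD replicate 3, against 7.62 or less elsewhere. Slc25a47, a liver carrier, was 7.60 in STZ, BEZ replicate 5 and 7.23 or less elsewhere, and that mouse had the highest Alb (albumin) signal, 12.75, and a liver marker mean of 11.64. Without the arrays with pancreas genes, this mouse alone stood for STZ, BEZ, and Slc25a47 was then the 1 member to pass against STZ, SD. Con, SD replicate 2 had the next highest Alb signal, 12.15, but Slc25a47 at 6.85. The part of these organ genes in the carrier values was not tested.

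**Figure D5:**
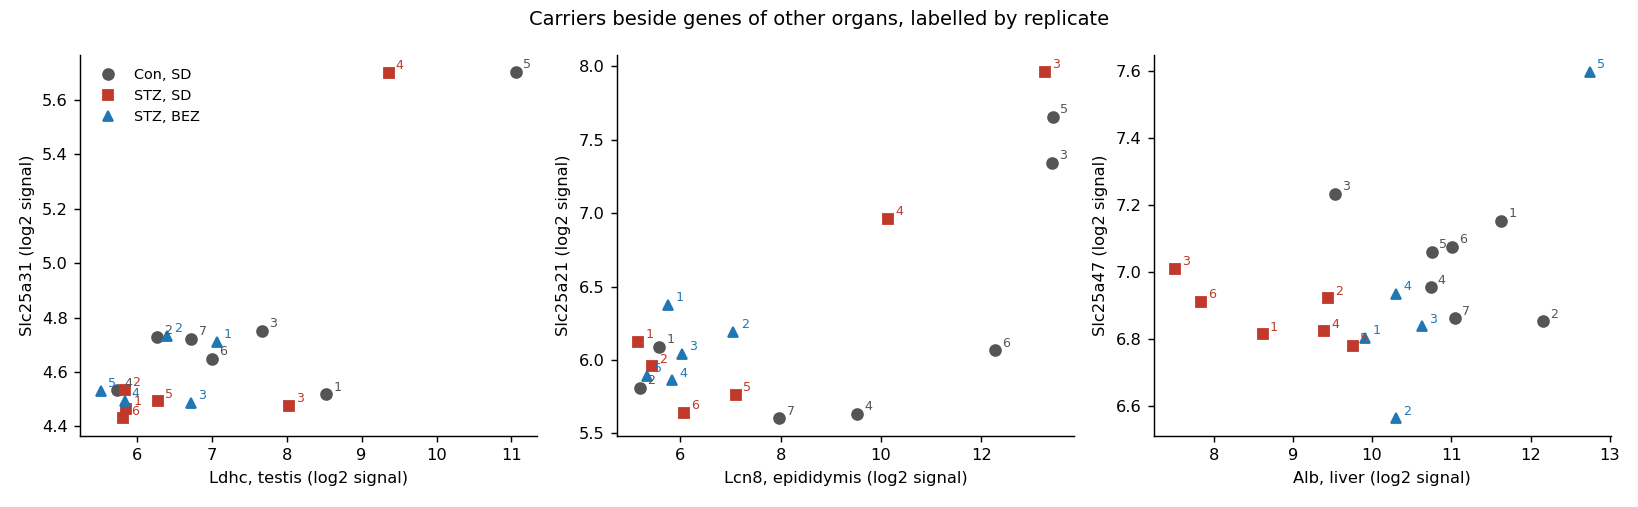
Log2 signal of Slc25a31, Slc25a21 and Slc25a47 against a gene of testis (Ldhc), epididymis (Lcn8) and liver (Alb), 1 labelled point per mouse. The high points are Con, SD replicate 5 and STZ, SD replicate 4 for Slc25a31, both at 5.70, and STZ, BEZ replicate 5 for Slc25a47, at 7.60.

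A list of 13 genes for enzymes of the cytosol and of fatty acid synthesis was measured beside the carriers. Some of them use exported citrate or malate and others do not. Of the 13, 1 rose (7.69%) and 6 fell (46.2%) in STZ, SD against Con, SD, against 5.82% and 4.52% of all genes. The list median was −1.08. Acacb, an acetyl-CoA carboxylase, rose by 1.12 ± 0.33 (adjusted p = 0.0562). Scd1, a fatty acid desaturase, fell by 1.58 ± 0.31 (adjusted p = 0.0112), Gpd1, which makes glycerol 3-phosphate, fell by 1.23 ± 0.25 (adjusted p = 0.0128), and Fasn, the fatty acid synthase, fell by 1.64 ± 0.38 (adjusted p = 0.0206). The others that fell were Acss2, which makes acetyl-CoA from acetate, Elovl6, a fatty acid elongase, and Me1, the malic enzyme, which uses malate directly (−1.57 ± 0.44, adjusted p = 0.0452). Acly, which cleaves exported citrate, did not pass (−1.08 ± 0.40, adjusted p = 0.123). In STZ, BEZ against STZ, SD, 2 rose (15.4%, against 0.682% of all genes), with a list median of 0.91. They were Gpd1, by 1.87 ± 0.27 (adjusted p = 0.00846), and Scd1, by 1.65 ± 0.34 (adjusted p = 0.0621). In STZ, BEZ against Con, SD only Acacb rose (7.69% of the list, against 4.57% of all genes), by 1.98 ± 0.35 (adjusted p = 0.00864). The mean of the list was lowest in STZ, SD replicates 6, 4 and 2 (9.22, 10.06 and 10.14), the mice with the lowest Slc25a10.

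Of 11 enzymes of the matrix that share substrates with the carriers, 0 changed in STZ, SD by limma, where 1 was higher and 1 lower at an unadjusted p under 0.05. Each of these is 9.09% of the list, against 10.7% and 9.61% of all genes. In STZ, BEZ against STZ, SD, citrate synthase (Cs) rose by 0.92 ± 0.20 (adjusted p = 0.0653) and malate dehydrogenase (Mdh2) by 0.71 ± 0.15 (adjusted p = 0.0653). These 2 were 18.2% of the list, against 0.682% of all genes. Against Con, SD, Sdha, a succinate dehydrogenase subunit, rose by 0.76 ± 0.15 (adjusted p = 0.0145), Cs by 0.74 ± 0.19 (adjusted p = 0.0415) and fumarase (Fh1) by 0.58 ± 0.19 (adjusted p = 0.099). These 3 were 27.3% of the list, against 4.57% of all genes.

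Of 2 uncoupling proteins, which belong to the same protein family, Ucp3 moved and Ucp1 did not pass. Ucp3 ranged from 6.82 to 8.21 in Con, SD, from 5.53 to 7.39 in STZ, SD and from 7.86 to 8.10 in STZ, BEZ. It fell by 1.16 ± 0.30 in STZ, SD (adjusted p = 0.032) and rose by 1.49 ± 0.32 in STZ, BEZ against STZ, SD (adjusted p = 0.0653). Ucp3 is best known from skeletal muscle, and the mean of 10 skeletal muscle markers ran from 6.46 to 8.48 in the Con, SD mice. It lay between 6.09 and 6.38 in the STZ, SD mice and between 6.12 and 7.28 in the STZ, BEZ mice. All 10 were negative in STZ, SD against Con, SD, of which 5 fell (50%, against 4.52% of all genes). All 10 were positive in STZ, BEZ against STZ, SD, of which 0 passed by limma, against 0.682% of all genes. At an unadjusted p under 0.05, 3 were higher there (30%, against 7.54% of all genes). The part of muscle genes in the Ucp3 values was not tested. Ucp1 ranged from 5.04 to 7.24 in Con, SD and from 5.28 to 6.31 in STZ, BEZ, a difference of 0.08 ± 0.28 (adjusted p = 0.915).

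Of 18 other mitochondrial transporters, whose symbols lack the Slc25a pattern, 1 rose (5.56%) and 3 fell (16.7%) in STZ, SD. The shares of all genes were 5.82% and 4.52%. Sfxn2 rose, and Mtch1, Smdt1 and Mpc1 fell. Mpc1, a subunit of the pyruvate carrier, fell by 0.54 ± 0.17 (adjusted p = 0.0683) and rose by 0.90 ± 0.18 in STZ, BEZ against STZ, SD (adjusted p = 0.0621), where Abcb8 rose too, by 0.57 ± 0.13 (adjusted p = 0.0765). The 2 that rose there were 11.1% of the list, against 0.682% of all genes. In STZ, BEZ against Con, SD, 3 rose (16.7%) and 1 fell (5.56%), where the shares of all genes were 4.57% and 1.38%. The lowest p was that of the serine carrier Sfxn1, at 1.21 ± 0.26 (adjusted p = 0.0175). Of 10 genes that import carriers into the inner membrane, 0 changed in either comparison with STZ, SD by limma (at an unadjusted p under 0.05, 2 were higher and 2 lower against Con, SD, and 2 higher and 0 lower with BEZ). The shares of all genes at that limit were 10.7% and 9.61%, and 7.54% and 2.67%. Timm9 (0.51 ± 0.11, adjusted p = 0.0236) and Tomm20 (0.27 ± 0.08, adjusted p = 0.076) rose in STZ, BEZ against Con, SD, 20% of the 10 against 4.57% of all genes.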

How the data were processed

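RNA of visceral fat was hybridised to Affymetrix Mouse Gene 1.0 ST arrays, 1 per mouse. The authors deposited log2 signals made by RMA in Affymetrix Expression Console 1.2, per the labels. Of 35556 probe sets, 21789 had a single platform symbol, and 1 probe set was kept for each of 19938 genes. Of these, 19856 had an Entrez ID in the RefSeq table, which was used to find listed genes under their newer symbols. The labels and the study's methods differ on the STZ dose, the BEZ content of the chow and the injection of controls, and the labels are followed.

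All 18 arrays were fitted with limma 3.58.1 (R 4.3.3), with Benjamini-Hochberg adjustment over all genes and a limit of 0.10, the rate the study used with SAM. Both were tested on simulated data. The members and lists were chosen with earlier results of these data known. Values by mouse are given for every changed member, for 8 fixed by role (Slc25a1, Slc25a3, Slc25a4, Slc25a5, Slc25a10, Slc25a11, Slc25a21 and Slc25a31) and for the 5 of highest mean, 17 in all. Of each list of other genes, up to 3 changed genes per comparison are named by p, with Mpc1, Ucp1, Acacb, Acly, Me1, Acss2, Elovl6, Cox7a1 and Dio2 added. Alternatives covered the threshold, SAM, probe sets, low signals, scaling, variance model, array weights, arrays fitted, replicate number, tissue markers and each array left out. The number of mice limits the precision.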

Additional observations from a re-analysis of the deposited data

Results flagged for a closer look

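In 51 groups of 17 carriers, 4 single mice lay far from the rest of their group by Dixon's test, which flags about 1 in 20 groups by chance. Slc25a3 was 11.76 in Con, SD replicate 6, with the nearest control mouse at 11.58. Slc25a4 was 9.64 in STZ, SD replicate 6, the mouse with the pancreas signal and the lowest adipocyte signal, with the nearest at 10.73. Slc25a31 was 5.70 in Con, SD replicate 5 and 5.70 in STZ, SD replicate 4, the mice with the highest signal of the sperm gene Ldhc.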

How the results depend on the processing

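The counts of changed carriers in STZ, SD against Con, SD (4), STZ, BEZ against STZ, SD (2) and STZ, BEZ against Con, SD (7) depended on the processing, in this order below. They were 2, 0 and 3 at an adjusted p under 0.05, 8, 4 and 13 with array weights, 1, 0 and 11 with only the arrays compared, and 7, 14 and 15 with pancreas and epididymis means as covariates. Without the 5 arrays with pancreas genes they were 1, 1 and 0. SAM gave 6, 5 and 15, centring on array medians 4, 1 and 4, and the adipocyte covariate 6, 0 and 5. All probe sets, the mean of a gene's probe sets, quantile normalization, a variance trend and leaving out the dimmest 25% of genes stayed within 1.5 times. Leaving out each array in turn gave 1 to 8, 0 to 8 and 2 to 10. The first count was 1 without STZ, SD replicate 2, 2 without STZ, SD replicate 4, also 2 without Con, SD replicate 6, but 8 without the diabetic replicate 6. The second was 8 without STZ, SD replicate 1, 6 without replicate 5, 1 without replicate 6 or Con, SD replicates 2 or 3, and 0 without STZ, SD replicates 2, 3 or 4 or any STZ, BEZ mouse. The third was 2 without STZ, BEZ replicate 2, 3 without Con, SD replicates 1, 3 or 5 or STZ, BEZ replicates 1, 4 or 5, 4 without Con, SD replicates 2 or 7, and 10 without STZ, SD replicate 6, the mouse with the pancreas signal. The cause was not tested. Replicate numbers name different mice, and deviations of same-numbered mice correlated between −0.357 and 0.70, so the numbers do not pair the mice. With the replicate number as a block, 0, 0 and 2 carriers changed. The 1 change of direction was Slc25a21 in STZ, BEZ against Con, SD, −0.24 as reported and 0.79 with the pancreas and epididymis covariates (adjusted p = 0.0148). Of the other values of the 17 named carriers, 1412 kept their direction and side of the limit, 123 lost a call, 46 gained 1 and 47 turned sign without a call. Only the 4, 2 and 7 calls could be lost. Most of the 1412 were differences with no call in either fit, so they do not measure how stable the calls were.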
